A study of Mus musculus with 8 samples.

Results

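The 10 genes described here code for proteins of melanin synthesis and of the melanosome, the organelle in which melanin is made. They were chosen by name: *Dct*, *Tyr*, *Tyrp1*, *Mitf*, *Pmel*, *Mlana*, *Oca2*, *Slc45a2*, *Slc24a5* and *Gpnmb*. All 10 are among the 22873 genes of the deposited counts, and together they account for 1.30% of all counts of unique molecular identifiers (UMIs, each marking 1 captured transcript). Single nuclei were prepared from irises of wild-type female albino mice, 6 to 8 weeks old, whose albino allele is not given in the sources used here. Of the 3 conditions compared, the untreated one gave 3 libraries. Pupils were constricted with hourly drops of 5% pilocarpine in the light (3 libraries), or dilated with hourly drops of 5% phenylephrine and 1% cyclopentolate in the dark (2 libraries), in both cases over 6.5 hours, so that the drug and the lighting cannot be told apart. Each library pooled 5 to 6 irises and part of the ciliary body. The authors assigned each of the 34357 nuclei to 1 of 10 cell types: iris pigment epithelium (iris PE), ciliary body epithelium (CBE), ciliary body (CB), dilator muscle, sphincter 1, sphincter 2, stroma 1, stroma 2, endothelial cells and leukocytes.

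Melanin is made from tyrosine. Tyrosinase, the product of *Tyr*, carries out the first, rate-limiting oxidation, and dopachrome tautomerase (*Dct*) and tyrosinase-related protein (*Tyrp1*) act on later intermediates. Transcription of these genes is driven by MITF, a basic helix-loop-helix factor that binds short E-box motifs. PMEL forms the fibrils on which melanin is laid down, MLANA helps to process it, and OCA2, SLC45A2 and SLC24A5 are membrane proteins that move ions or other small solutes and set the conditions in which tyrosinase can work. GPNMB is a glycoprotein related to PMEL that is also found in lysosomes, including those of macrophages. In a mouse eye pigment is made by cells of separate embryonic origin: the pigmented epithelia and the muscles of the iris, which come from the neuroepithelium of the optic cup, and the melanocytes of the stroma, which come from the neural crest. Albino mice form no melanin, but transcripts of the pathway can still be measured.

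The upstream sequences of 4 genes are shown first, because these are the members that changed in dilator muscle. Each is the stretch of 250 bases just before the annotated start of the transcript (RefSeq, GRCm38.p6, the assembly that mm10 names), written 5′ to 3′ on the strand of the gene, and no part of it is an exon in the GENCODE annotation. Capitals mark TCATGTG, known as the M-box, and the E-box cores CATGTG (which lies within the M-box) and CACGTG, each searched on both strands. They were read at chr7:87493513-87493762 (- strand) for *Tyr*, chr14:118052247-118052496 (- strand) for *Dct*, chr7:56239509-56239758 (+ strand) for *Oca2* and chr6:49036268-49036517 (+ strand) for *Gpnmb*.
Tyr: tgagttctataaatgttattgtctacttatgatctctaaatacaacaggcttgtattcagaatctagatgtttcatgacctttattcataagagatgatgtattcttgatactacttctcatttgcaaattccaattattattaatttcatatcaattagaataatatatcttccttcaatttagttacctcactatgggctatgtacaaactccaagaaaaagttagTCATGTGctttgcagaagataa
Dct: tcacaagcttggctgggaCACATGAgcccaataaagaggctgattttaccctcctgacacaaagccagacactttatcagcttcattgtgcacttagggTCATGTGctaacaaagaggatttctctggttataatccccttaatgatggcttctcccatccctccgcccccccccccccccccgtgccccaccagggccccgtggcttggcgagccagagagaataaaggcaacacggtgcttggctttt
Oca2: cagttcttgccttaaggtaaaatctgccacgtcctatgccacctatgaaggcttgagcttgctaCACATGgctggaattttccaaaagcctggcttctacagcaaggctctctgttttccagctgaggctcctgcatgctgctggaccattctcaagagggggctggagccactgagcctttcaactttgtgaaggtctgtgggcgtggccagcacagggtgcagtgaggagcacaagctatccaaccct
Gpnmb: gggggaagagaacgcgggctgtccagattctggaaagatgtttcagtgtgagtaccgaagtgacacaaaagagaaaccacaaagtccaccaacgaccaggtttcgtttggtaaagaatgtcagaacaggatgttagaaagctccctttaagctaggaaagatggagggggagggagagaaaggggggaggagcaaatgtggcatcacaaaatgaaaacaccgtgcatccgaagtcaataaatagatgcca
*Tyr* has an M-box that begins 22 bases before its start. *Dct* has a pair, beginning 232 and 151 bases before the start and lying on opposite strands. *Oca2* has a CATGTG core on the other strand at 186 bases, and *Gpnmb* none of these letters in its window. Upstream windows were matched for 7 of the 10 genes. *Tyrp1* and *Slc24a5* also have 1 M-box each, and the 3 windows of *Mitf* have none. In all 32851 windows of the same length in the genome, 3.25% hold TCATGTG, 12.3% hold CATGTG and 6.02% hold CACGTG. A match describes the letters only.

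The UMIs of all nuclei of a cell type in a library were added up, and a level is the number of UMIs of a gene in every 1000000 UMIs of that sum (CPM). Means are given ± SD, with n = 3 for untreated and constricted and n = 2 for dilated libraries. The libraries held 1274 to 7321 nuclei and 5189437 to 25136427 UMIs. In the annotation (GENCODE, mm10) *Tyr* lies at chr7:87424771-87493512, *Dct* at chr14:118012790-118052244, *Tyrp1* at chr4:80834123-80851719, *Mitf* at chr6:97807052-98021349, *Pmel* at chr10:128704195-128720238, *Mlana* at chr19:29697824-29708634, *Oca2* at chr7:56239760-56536518, *Slc45a2* at chr15:11000721-11029233, *Slc24a5* at chr2:125068124-125088677 and *Gpnmb* at chr6:49036546-49070929. The 6 genes *Tyr*, *Tyrp1*, *Mlana*, *Slc45a2*, *Mitf* and *Gpnmb* overlap no gene on either strand that was counted, while *Dct* overlaps 4930435M08Rik, *Oca2* overlaps Gm44506, *Slc24a5* overlaps *Myef2* and *Pmel* overlaps *Cdk2* and *Dgka*, all on the opposite strand. Untreated replicate 1 and dilated replicate 1 shared 63 cell barcodes, of which 59 carried the same cell type in both, whereas the other 27 pairs of libraries shared 0 to 18. Constricted replicate 1 shared 14 with untreated replicate 1 (13 of the same cell type) and 18 with dilated replicate 1 (11 of the same cell type). In every remaining pair at most 3 carried the same cell type. Without all 400 nuclei whose barcode occurs in 2 libraries, each count of calls given below was the same. Of the 4 markers used for stroma 1 (*Sox10*, *Pax3*, *Tbx1* and *Tfap2a*, the first and second known from neural crest melanocytes), the summed level was 2981 to 3038 CPM in untreated stroma 1 and 10.3 to 18.7 CPM in dilator muscle.

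In untreated irises, 8 of the 10 genes had their highest mean level in stroma 1, and the 10 together made up 38264 ± 1202 CPM there (n = 3), against 14833 ± 285 in iris PE, 12948 ± 496 in dilator muscle and 8769.6 ± 2405 in CB. Their sum was lowest in stroma 2, at 1105 ± 49.1 CPM. The exceptions to the order were *Gpnmb*, which was highest in dilator muscle, and *Mlana*, which was highest in iris PE. No test is given between cell types, because the authors' clusters were made from the same counts.

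**Figure D1:**
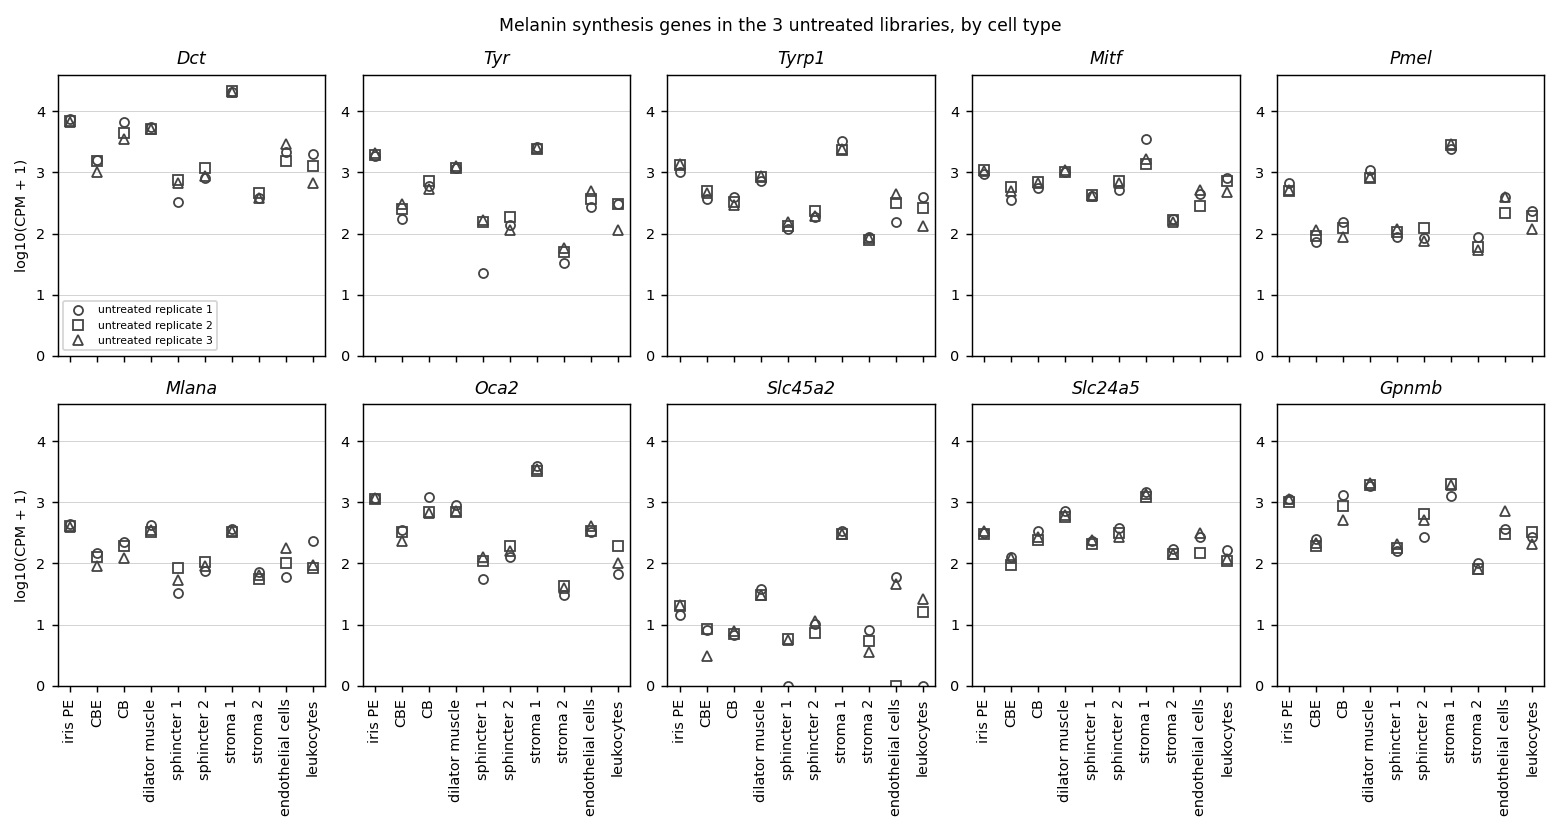
Level of each gene, as log10(CPM + 1), in the 10 cell types of the 3 untreated libraries, with a symbol for each library. Stroma 1 stands highest for 8 of the 10 genes, and *Slc45a2* is near the bottom of the axis outside stroma 1.

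Among the enzymes, *Dct* reached 20505, 21468 and 20798 CPM in the untreated stroma 1 libraries, 7603, 7024 and 6554 in iris PE, 5591, 5031 and 5038 in dilator muscle and 6624, 4406 and 3477 in CB. The stroma 1 libraries lay above all others. Iris PE did not overlap with dilator muscle, while CB, whose highest library was above the lowest of iris PE, overlapped with both. *Tyr* had the same order at the top, with 2567, 2398 and 2466 CPM in stroma 1, 1854, 1915 and 2107 in iris PE and 1170.1, 1189 and 1284 in dilator muscle, and these 3 types did not overlap. Relative to *Dct* there was less *Tyr* in stroma 1, which had 11.7 *Tyr* UMIs for every 100 *Dct* UMIs, than in iris PE (29.2) or dilator muscle (24.1). *Tyrp1* was at 2651 ± 498 CPM in stroma 1, 1233 ± 184 in iris PE, 806 ± 78.9 in dilator muscle and 443 ± 66.7 in CBE. The CBE and CB libraries overlapped for *Tyrp1*, and the 3 higher types did not.

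*Mitf*, the transcription factor of the list, was at 2178 ± 1170.2 CPM in stroma 1, 1038 ± 43.1 in dilator muscle, 1025 ± 82.9 in iris PE and 667 ± 168 in leukocytes, a class of cells in some of which, such as macrophages, MITF is also known to act. Leukocytes overlapped with CB and CB with sphincter 2. The stroma 1 mean rests on 1 library: the values were 3519, 1365 and 1649.5 CPM, with untreated replicate 1 well above the others, though the lowest of them still lay above every library of the next type. Dilator muscle and iris PE could not be ordered for *Mitf*, since their libraries overlapped.

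The fibril protein gene *Pmel* was at 2723 ± 246 CPM in stroma 1, 914 ± 146 in dilator muscle and 563 ± 101 in iris PE, so that here the muscle, not the epithelium, came second, without overlap. *Slc24a5*, the gene of a potassium-dependent sodium/calcium exchanger, had the same order: 1357 ± 115 CPM in stroma 1, 637 ± 70.5 in dilator muscle, 326 ± 55.6 in sphincter 2 and 317 ± 22.5 in iris PE, the latter 2 overlapping. *Oca2*, the gene of a melanosomal transport protein, was at 3583 ± 338 CPM in stroma 1, 1161 ± 41.1 in iris PE, 853 ± 305 in CB and 772 ± 103 in dilator muscle. Stroma 1 did not overlap with iris PE, while iris PE overlapped with CB and CB with dilator muscle. *Slc45a2*, which codes for a transporter that keeps melanosomes from turning too acidic, was 9.11-fold higher in stroma 1 than in the next type, against 1.13 to 3.09-fold between the first and second type for the other 9 genes. It reached 343, 302 and 305 CPM in stroma 1, 37.4, 29.6 and 30.1 in dilator muscle and 13.4, 19.1 and 20.3 in iris PE, and 1098 of its 1865 untreated UMIs came from stroma 1. Its second-ranked type, endothelial cells, held 11 UMIs in all and was at 0 in untreated replicate 2.

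*Mlana* was nearly level across the 3 pigment cell types, with 439.7, 409 and 393 CPM in iris PE, 417, 324 and 358 in dilator muscle and 366, 324 and 343 in stroma 1. Neighbours in this order overlapped. *Gpnmb* was at 1843, 1944 and 2052 CPM in dilator muscle and 1257, 1972 and 1904 in stroma 1, which overlapped, and at 1125, 1009.7 and 1113 in iris PE, which lay below both. Nuclear counts include introns, so levels of different genes are also given per kilobase of gene. Whether counts scale with gene length was not tested, and the order of the genes depends on this scaling. On that scale, in untreated stroma 1, *Dct* stood at 530.3 CPM per kb, *Pmel* at 169.7, *Tyrp1* at 151, *Slc24a5* at 66.0, *Gpnmb* at 49.8 and *Tyr* at 36.0. *Mlana* (31.8), *Oca2* (12.1), *Slc45a2* (11.1) and *Mitf* (10.2 CPM per kb) were lower.

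Transcripts of the 10 genes were found in every cell type, so the share of nuclei with a UMI was compared after each nucleus was thinned to 1000 UMIs. *Dct* was then seen in all 1280 untreated stroma 1 nuclei with that many UMIs, 98.7% of iris PE and 95.8% of dilator muscle. It was also seen in 28.1% of stroma 2, 29.6% of sphincter 1 and 29.8% of leukocyte nuclei (55.3%, 56.8% and 53.9% unthinned). Leukocytes come from the blood and make no melanin, so shares at or below theirs are not read as expression here, and the source of these UMIs was not tested. For *Tyr* the thinned share was 87.0% in stroma 1, 80.1% in iris PE, 61.7% in dilator muscle and 4.72% in stroma 2, and for *Slc45a2* it was 24.0%, 1.82%, 2.82% and 0.411%. Median UMIs per nucleus before thinning were 2691 in stroma 1, 3410.0 in dilator muscle and 2425 in stroma 2.

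The genes most like each member were listed by Pearson's r of log2(CPM + 1) over 30 values, the 10 cell types in the 3 untreated libraries, among 10197 genes with at least 500 untreated UMIs. The points share libraries and cell types, so r is a description. For *Dct* they were *Oca2* (r = 0.963), *Tyr* (r = 0.957) and *Mlph* (r = 0.951), the last being melanophilin, which ties RAB27A to the motor protein myosin Va. For *Tyr* they were *Dct* (r = 0.957), *Oca2* (r = 0.936) and *Tyrp1* (r = 0.927), for *Tyrp1* *Mlph* (r = 0.934), *Dct* (r = 0.929) and *Tyr* (r = 0.927) and for *Oca2* *Mlph* (r = 0.964), *Dct* (r = 0.963) and *Tyr* (r = 0.936). The lists of these 4 genes thus held each other and *Mlph* alone. *Mlana* was most like *Tyr* (r = 0.908), *Dct* (r = 0.889) and *Tyrp1* (r = 0.889). *Mitf* was most like *Rab27a* (r = 0.901), *Tyrp1* (r = 0.873) and *Mlph* (r = 0.847), where RAB27A is the small GTPase that links melanosomes to melanophilin. *Pmel* was most like *Sytl2* (r = 0.895), *Dmxl2* (r = 0.879) and *Dct* (r = 0.870), of which SYTL2 is a RAB27 effector. *Gpnmb*, *Slc24a5* and *Slc45a2* had other neighbours: *Rab27a* (r = 0.929), *Gm40841* (r = 0.923) and *Appl2* (r = 0.903) for *Gpnmb*, *Tex2* (r = 0.867), *4930402H24Rik* (r = 0.848) and *Pmel* (r = 0.834) for *Slc24a5* and *Smyd3* (r = 0.897), *Met* (r = 0.859) and *Gm10701* (r = 0.840) for *Slc45a2*.

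The effect of pupil dilation on these genes was asked in each cell type. A gene counts as changed at an edgeR adjusted p under 0.05 (quasi-likelihood test over all genes of the cell type) and an absolute log2 fold change over 0.6. Of 93 pairs of a gene and a cell type that could be tested, 10 changed with dilation, 7 upward and 3 downward. In dilator muscle, the muscle that contracts when the pupil dilates, *Gpnmb*, *Dct* and *Oca2* rose and *Tyr* fell. *Tyr* also fell in iris PE and in sphincter 2, *Gpnmb* also rose in both sphincters and in leukocytes, and *Slc45a2* rose in stroma 1. *Tyrp1*, *Mitf*, *Pmel*, *Mlana* and *Slc24a5* were not called in any cell type. *Pmel* was called in some alternatives, in dilator muscle with library totals alone as the scaling or with no fold threshold, and in stroma 2 with library series as a term. With library totals alone 5 pairs of a gene and a cell type were higher (*Gpnmb* in 4 cell types and *Slc45a2* in stroma 1) and 4 were lower (*Tyr* in 3 cell types and *Pmel* in dilator muscle). In dilator muscle 7.2% of all genes tested rose and 6.14% fell by the same rule, against 3 and 1 of the 10 members.

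**Figure D2:**
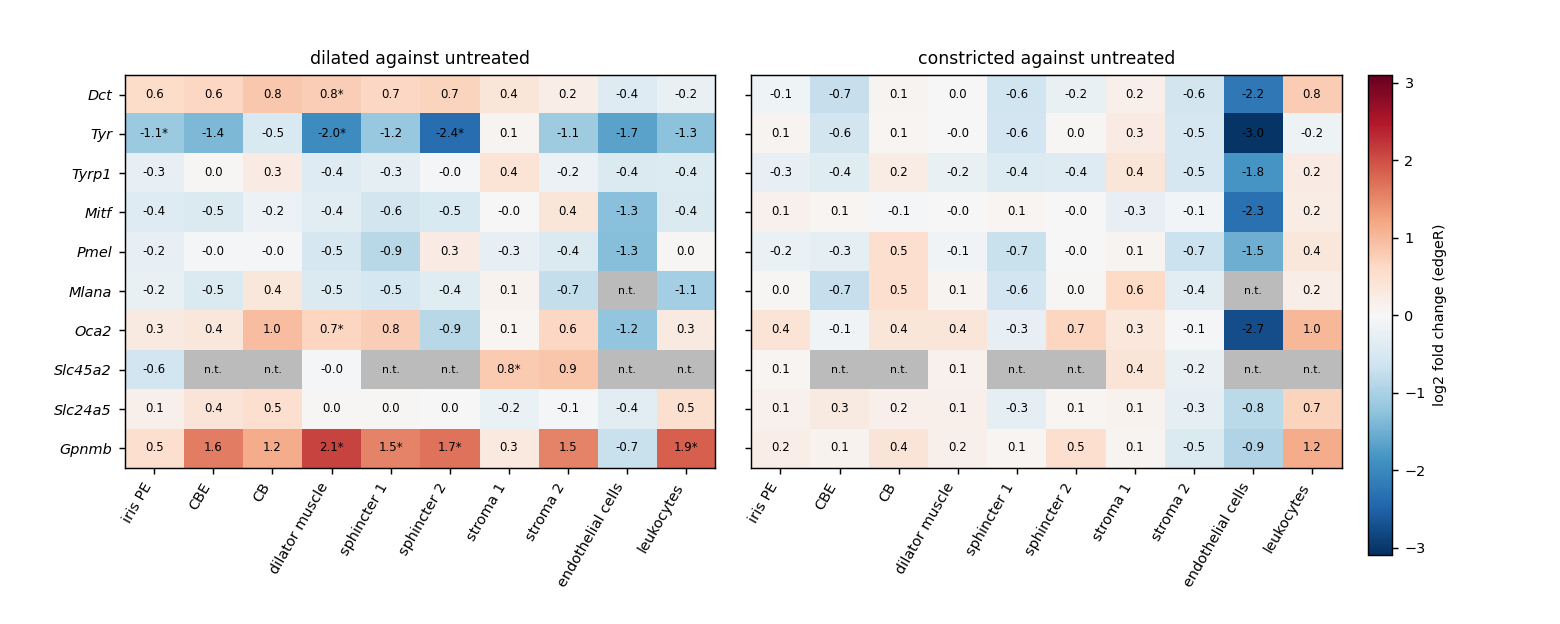
Map of edgeR log2 fold changes of the 10 genes (rows) in the 10 cell types (columns), dilated (left) and constricted (right) against untreated libraries, from blue (lower) to red (higher). An asterisk marks a change that passed the test (10 on the left, 0 on the right), and grey cells (n.t.) were too low to test.

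*Tyr* fell in the muscle and in the epithelium, and not in stroma 1. In dilator muscle its level was 1170.1, 1189 and 1284 CPM in the untreated libraries, 998, 1589 and 976 in the constricted libraries and 299 and 253 in the dilated libraries. Both dilated libraries lay below every other library, and the level was 3.87-fold lower than in untreated muscle (log2 fold change -1.95, SE 0.22, edgeR adjusted p = 0.000132). The share of thinned nuclei with a *Tyr* UMI was 61.7% in untreated and 21.1% in dilated muscle (85.8% and 50.9% unthinned). In iris PE, *Tyr* was at 1854, 1915 and 2107 CPM in untreated, 1826, 2504 and 1870.1 in constricted and 837 and 889 in dilated libraries. Again no library of another condition reached the dilated range, and the level was 2.20-fold lower than untreated (log2 fold change -1.14, SE 0.18, edgeR adjusted p = 0.0154), where 0.142% of all iris PE genes fell. In stroma 1 the levels were 2567, 2398 and 2466 CPM in untreated and 2729 and 2451 CPM in dilated libraries, which overlapped (log2 fold change 0.08, SE 0.16, edgeR adjusted p = 0.885).

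The decrease of *Tyr* in iris PE did not pass the test when any of 4 libraries was left out: the log2 fold change was -1.05 without dilated replicate 1 (adjusted p = 0.124), -1.22 without dilated replicate 2 (adjusted p = 0.109), -1.15 without untreated replicate 2 (adjusted p = 0.0691) and -1.06 without untreated replicate 3 (adjusted p = 0.112). Over all 18 alternatives it ranged from -1.22 to -1.05, with adjusted p from 4.27e-07 to 0.124. In dilator muscle the call held in all 18 alternatives. The summed level of the dilator markers *Adra1a*, *Nos1* and *Myh11* in iris PE was 97.4 to 102 CPM in untreated and 57.9 to 83.9 CPM in dilated libraries, against 2406 to 2832 and 1583 to 1623 CPM in dilator muscle itself, so the markers were lower in dilated libraries too, and their part in the result was not tested.

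*Gpnmb* showed the opposite change. In dilator muscle its level was 1843, 1944 and 2052 CPM in untreated, 1859, 2172 and 2420.5 in constricted and 7086 and 7431 in dilated libraries. The dilated libraries lay above all others, 4.26-fold above untreated (log2 fold change 2.09, SE 0.17, edgeR adjusted p = 1.56e-05). The share of thinned nuclei with a UMI was 76.1% in untreated and 96.3% in dilated muscle. In iris PE the libraries did not overlap either, at 1125, 1009.7 and 1113 CPM in untreated and 1485 and 1532 CPM in dilated irises, but the difference did not pass the test (log2 fold change 0.53, SE 0.14, edgeR adjusted p = 0.149). In stroma 1 the values were 1257, 1972 and 1904 and 2069 and 2101 CPM (log2 fold change 0.29, SE 0.18, edgeR adjusted p = 0.522). *Gpnmb*, with 15.8% of the UMIs of the 10 genes over all libraries, thus took 15.5% of them in untreated and 38.2% in dilated dilator muscle.

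**Figure D3:**
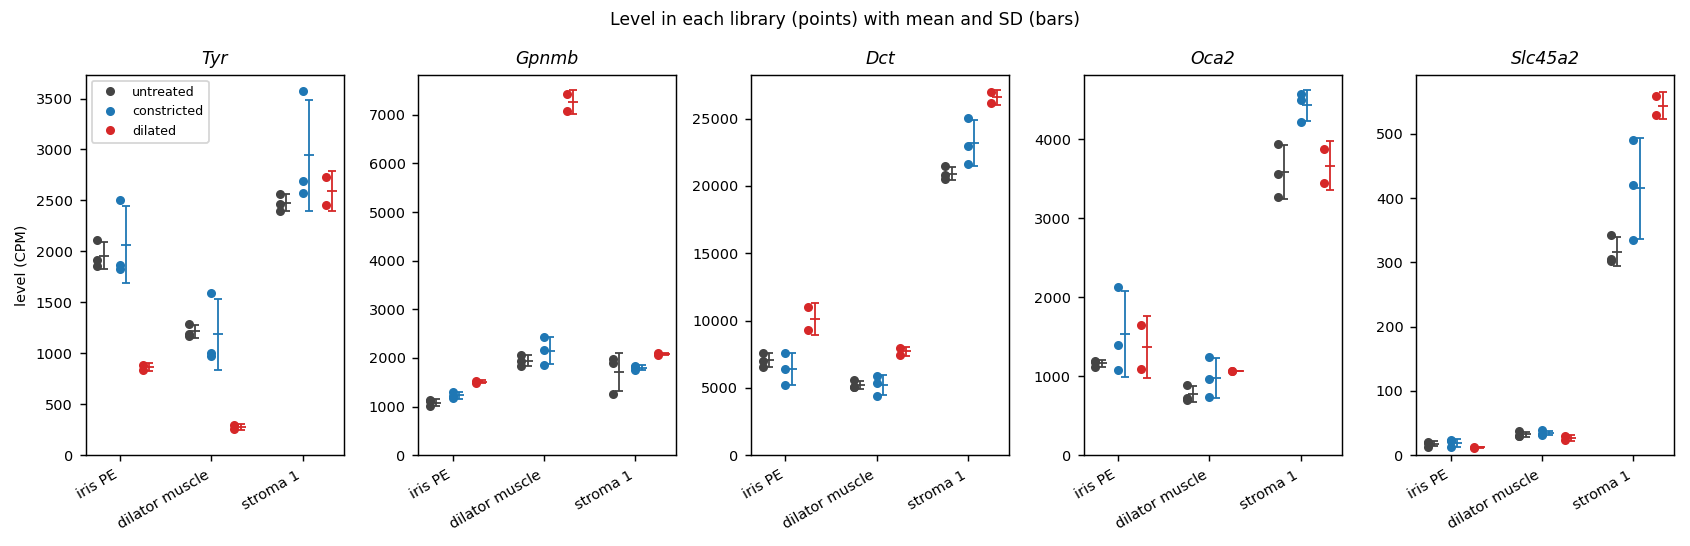
Levels (CPM) of 5 genes in iris PE, dilator muscle and stroma 1, with a point for each library and bars for mean and SD; grey is untreated, blue constricted and red dilated. In dilator muscle the dilated libraries stand at 299 and 253 CPM for *Tyr* and 7086 and 7431 CPM for *Gpnmb*, apart from all others.

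Outside the pigment cells *Gpnmb* rose in 3 more cell types. In sphincter 2 it was at 266, 631 and 514 CPM in untreated and 1445 and 1570.5 in dilated libraries (log2 fold change 1.68, SE 0.23, edgeR adjusted p = 1.74e-05), and in sphincter 1 at 161, 179 and 210.3 and 589 and 485 (log2 fold change 1.54, SE 0.28, edgeR adjusted p = 0.00433). In leukocytes it was at 265, 329.6 and 210.4 CPM in untreated, 970.4, 503 and 303 in constricted and 986 and 951 in dilated libraries (log2 fold change 1.86, SE 0.37, edgeR adjusted p = 0.017), with 34 to 68 nuclei per dilated library. Constricted replicate 1 lay within the range of the dilated ones in leukocytes. Without the nuclei marked as doublets it was at 336 CPM, the other constricted libraries at 503 and 248 and the dilated ones at 672 and 929. By the same rule 0.633% of genes rose in sphincter 1, 1.46% in sphincter 2 and 0.76% in leukocytes. The leukocyte call was lost without untreated replicate 3 (1.65, adjusted p = 0.101), and over 18 alternatives the adjusted p ranged from 0.000189 to 0.101. *Tyr* in sphincter 2 was at 137, 187 and 113 CPM in untreated and 33.3 and 20.4 in dilated libraries (log2 fold change -2.36, SE 0.42, edgeR adjusted p = 0.000821), where 1.4% of genes fell. The call held in all 18 alternatives, but without doublets these levels were 48.7, 135 and 61.6 and 34.0 and 10.8 CPM. The thinned share of sphincter 2 nuclei with a *Tyr* UMI was 8.26% in untreated and 1.91% in dilated irises. Leukocytes had 7.30% and 3.19%, so the dilated share in sphincter 2 is not read as expression.

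Removing the nuclei marked as doublets changed the sphincter 1 levels of *Gpnmb*, which were then 136, 89.7 and 105 CPM in untreated and 448 and 221 in dilated libraries, with a log2 fold change of 1.69 (adjusted p = 0.00344, range over alternatives from 2.83e-08 to 0.0318). The members were also compared by their ratio to *Dct*, which does not depend on the total but does move with *Dct* itself. The log2 fold change of *Dct* with dilation was 0.76 in dilator muscle (called), 0.56 in iris PE and 0.36 in stroma 1. It was 0.65 in sphincter 1, 0.69 in sphincter 2, 0.20 in stroma 2 and -0.22 in leukocytes. A lower ratio is thus not by itself a lower level of *Tyr* or *Gpnmb*. For every 100 *Dct* UMIs, the *Tyr* UMIs were 24.1 in untreated and 3.72 in dilated dilator muscle, 29.2 and 8.21 in iris PE, 22.2 and 6.24 in sphincter 1, 14.6 and 1.81 in sphincter 2, and 12.4 and 4.89 in stroma 2. In untreated irises the thinned shares of nuclei with *Dct* in sphincter 1 and stroma 2, and with *Tyr* in stroma 2, were below those of leukocytes. The ratios of these 2 types are therefore not read as expression, nor is *Dct* in leukocytes. The *Gpnmb* UMIs for every 100 *Dct* UMIs went from 38.8 to 94.4 in dilator muscle, from 15.6 to 14.4 in iris PE, from 54.8 to 103 in sphincter 2 and from 25.3 to 97.4 in leukocytes. In stroma 1 *Tyr* went from 11.7 to 9.80 and *Gpnmb* from 8.70 to 7.85. Marker levels were compared in the same nuclei. In sphincter 1 the summed level of the epithelial markers *Zic1*, *Zic2* and *Zic4* was 53.8 to 167 CPM in untreated and 210.0 to 224 in dilated libraries, and that of the 4 sphincter markers (*Chrm3*, *Ttn*, *Ctnna3* and *Rbfox3*) was 7219 to 8521 and 5591 to 6886 CPM, both without overlap. In sphincter 2 the epithelial markers were at 29.7 to 82.5 and 17.0 to 51.9 CPM, which overlapped, and the dilator markers at 2776 to 3413 and 3631 to 3767 CPM, which did not. The untreated mean of the dilator markers was 3061 CPM in sphincter 2, 2975 in sphincter 1 and 2656 in dilator muscle. These markers therefore cannot tell dilator RNA from the RNA of sphincter cells. In leukocytes the dilator markers were at 0 to 375 and 163 to 264 CPM and the 8 leukocyte markers at 5289.6 to 6579 and 4438 to 4609.9 CPM. The part of RNA from other cells in the sphincter and leukocyte values was not tested.

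*Dct* and *Oca2* rose by less. *Dct* in dilator muscle was at 5591, 5031 and 5038 CPM in untreated, 5859, 5356 and 4422 in constricted and 7463 and 7952 in dilated libraries (log2 fold change 0.76, SE 0.15, edgeR adjusted p = 0.00547). *Oca2* in dilator muscle was at 890.2, 699 and 728 CPM in untreated, 731, 964 and 1237 in constricted and 1061 and 1066 in dilated libraries (log2 fold change 0.66, SE 0.20, edgeR adjusted p = 0.0447). The dilated libraries lay above all untreated ones for both genes, but constricted replicate 3 was higher than both dilated libraries for *Oca2*. The *Dct* call was lost without dilated replicate 2 (0.63, adjusted p = 0.0512, range over alternatives from 2.13e-05 to 0.0512). The *Oca2* call was lost without doublets (0.64, adjusted p = 0.0504) and when any of 6 libraries was left out: 0.73 without untreated replicate 1 (adjusted p = 0.0592), 0.62 without untreated replicate 2 (adjusted p = 0.155), 0.64 without untreated replicate 3 (adjusted p = 0.141), 0.64 without constricted replicate 2 (adjusted p = 0.0655), 0.74 without dilated replicate 1 (adjusted p = 0.0874) and 0.58 without dilated replicate 2 (adjusted p = 0.213). Over 18 alternatives its adjusted p ranged from 0.00671 to 0.213. The scaling by trimmed mean of M-values (TMM) bears on both, since with library totals alone the median log2 fold change of all dilator genes was -0.16 in place of 0.02. With totals alone, *Dct* was at 0.56 (adjusted p = 0.0305) and *Oca2* at 0.46 (adjusted p = 0.138), neither of which met the threshold of 0.6.

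In stroma 1 *Slc45a2* was the only one of the 10 genes to pass the test, at 343, 302 and 305 CPM in untreated, 334, 421 and 491 in constricted and 529 and 559 in dilated libraries (log2 fold change 0.80, SE 0.17, edgeR adjusted p = 0.0256). Both dilated libraries were above all others, and 0.786% of all stroma 1 genes rose. The share of thinned stroma 1 nuclei with a *Slc45a2* UMI was 24.0% in untreated and 39.6% in dilated irises. The call was lost when any of 4 libraries was left out: 0.79 without untreated replicate 2 (adjusted p = 0.11), 0.78 without untreated replicate 3 (adjusted p = 0.17), 0.91 without dilated replicate 1 (adjusted p = 0.0646) and 0.71 without dilated replicate 2 (adjusted p = 0.215). Over 18 alternatives the adjusted p ranged from 0.00164 to 0.215. *Dct* in stroma 1 was at 20505, 21468 and 20798 CPM in untreated and 26187 and 26978 in dilated libraries, without overlap, and did not pass the test (log2 fold change 0.36, SE 0.14, edgeR adjusted p = 0.233).

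Of the remaining genes, in dilator muscle *Pmel* was at 1082, 823 and 836 CPM in untreated and 572 and 545 in dilated libraries, without overlap, and its adjusted p was under 0.05 while its fold was not past the threshold (log2 fold change -0.51, SE 0.15, edgeR adjusted p = 0.0353). *Mitf*, at 1002, 1027 and 1086 and 779.6 and 651 CPM, was not called (log2 fold change -0.35, SE 0.15, edgeR adjusted p = 0.136), nor was *Tyrp1*, at 718, 833 and 868 and 618 and 466 CPM (log2 fold change -0.40, SE 0.17, edgeR adjusted p = 0.135). *Mlana* had a log2 fold change of -0.45 (adjusted p = 0.243) and *Slc24a5* of 0.04 (adjusted p = 0.905) in dilator muscle. In CBE, where 0.0122% of genes changed, *Gpnmb* was at 249, 195 and 218 CPM in untreated and 754 and 517 in dilated libraries and missed the threshold (log2 fold change 1.58, SE 0.28, edgeR adjusted p = 0.0513). Without doublets these levels were 220.3, 177 and 221 CPM in untreated and 440.0 and 116 in dilated libraries, which overlapped. In CB (0.0665% of genes changed) and in stroma 2 (1.73%) *Gpnmb* had log2 fold changes of 1.16 (adjusted p = 0.134) and 1.54 (adjusted p = 0.099). In CBE, CB, stroma 2 and endothelial cells edgeR called 0 members, of which 2, 4, 3 and 4 had an unadjusted p under 0.05. Over all genes tested, those with such a p numbered 353 of 8166, 393 of 7522, 1490 of 12788 and 90 of 1352. DESeq2 called *Gpnmb* in CBE and in CB. *Tyr* in CBE was at 174, 255 and 304 CPM in untreated and 101 and 76.4 in dilated libraries, without overlap (log2 fold change -1.40, SE 0.29, edgeR adjusted p = 0.132). EdgeR called *Gpnmb* and *Tyr* in CBE and *Gpnmb* in stroma 2 with only the libraries of both conditions and with library series as a term. In endothelial cells 0% of 1352 genes tested changed.

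Whether the change with dilation differed between cell types was tested by fitting 2 cell types jointly, with each library as a term. *Tyr* fell further in dilator muscle than in iris PE, by a log2 difference of -0.84 (SE 0.11, adjusted p = 6.96e-06). It differed between stroma 1 and both others, with stroma 1 higher than iris PE by 1.23 (SE 0.16, adjusted p = 2.66e-06) and higher than dilator muscle by 2.01 (SE 0.15, adjusted p = 2.65e-13). *Gpnmb* rose further in dilator muscle than in iris PE, by 1.53 (SE 0.10, adjusted p = 5.79e-10), and in stroma 1 its change was lower than in dilator muscle, -1.79 (SE 0.16, adjusted p = 1.10e-10). The change of *Slc45a2* in stroma 1 was higher relative to iris PE by 1.43 (SE 0.23, adjusted p = 7.47e-05) and to dilator muscle by 0.78 (SE 0.19, adjusted p = 0.00531). For *Mitf*, *Dct*, *Pmel* and *Slc24a5* no difference was called in the 4 pairs of cell types. Of all genes tested jointly, 12.2% differed between dilator muscle and iris PE, 1.53% between stroma 1 and iris PE, 5.73% between stroma 1 and dilator muscle and 0.276% between CBE and iris PE.

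**Figure D4:**
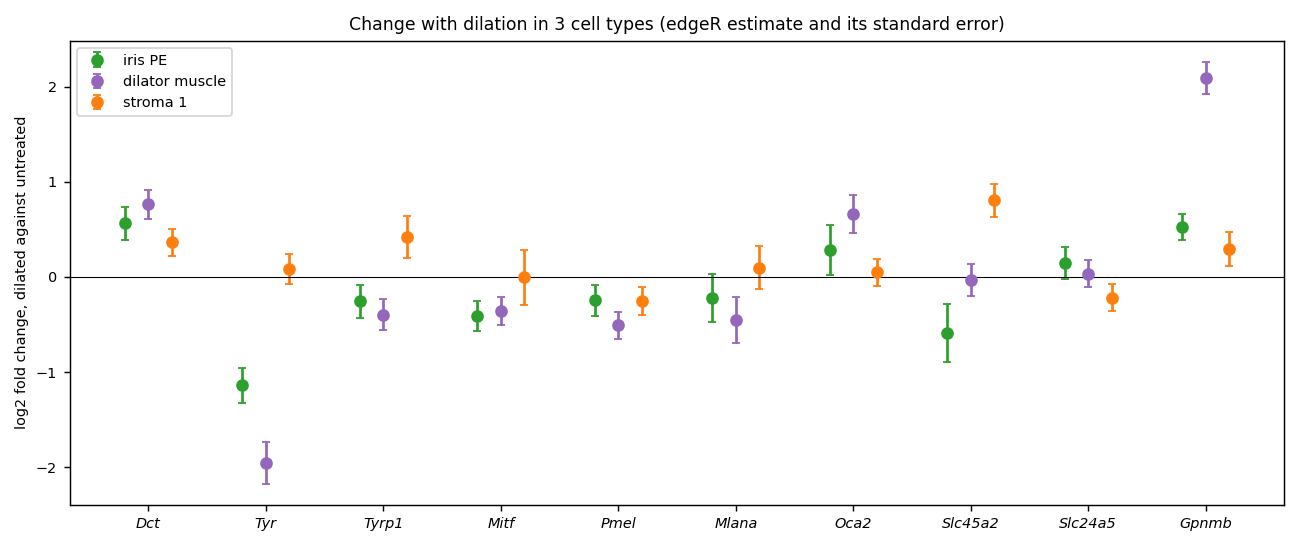
Log2 fold change of each gene, dilated against untreated, in iris PE, dilator muscle and stroma 1, as the edgeR estimate with its standard error. *Tyr* stands at -1.14, -1.95 and 0.08 in the 3 cell types, and *Gpnmb* at 0.53, 2.09 and 0.29.

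The numbers in the library names fall into 3 stretches, of which the first holds replicate 1 of each condition and the last holds dilated replicate 2 with untreated replicates 2 and 3. The sources used here name 5 processing batches without assigning libraries to them. Within the first stretch (1 library each) and within the last (1 against 2), the log2 ratios of CPM were -1.97 and -2.29 for *Tyr* in dilator muscle, -1.15 and -1.18 for *Tyr* in iris PE, and 1.94 and 1.90 for *Gpnmb* in dilator muscle. They were 0.42 and 0.66 for *Dct* and 0.25 and 0.58 for *Oca2* in dilator muscle, and 0.63 and 0.88 for *Slc45a2* in stroma 1. For *Gpnmb* they were 1.87 and 1.32 in sphincter 1, 2.44 and 1.46 in sphincter 2, and 1.90 and 1.82 in leukocytes, and for *Tyr* in sphincter 2 they were -2.04 and -2.88. For all 10 changes the dilated and untreated libraries did not overlap, so the direction within a stretch could not have differed. Only the sizes of the ratios are informative here.

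The mix of these transcripts within a cell type shifted with dilation, in different ways. In iris PE, *Dct* took 46.6% of the UMIs of the 10 genes in untreated and 61.6% in dilated libraries, and *Tyr* 13.6% and 5.06%. In dilator muscle the share of *Dct* was 39.9% and 40.4%, while that of *Pmel* was 6.71% and 2.99%. The summed level of the 10 genes was 12948 ± 496 CPM in untreated (n = 3), 13163 ± 649 in constricted (n = 3) and 18948 ± 388 in dilated (n = 2) dilator muscle. In stroma 1 it was 38264 ± 1202, 42783 ± 2396 and 44797 ± 1351 CPM.

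**Figure D5:**
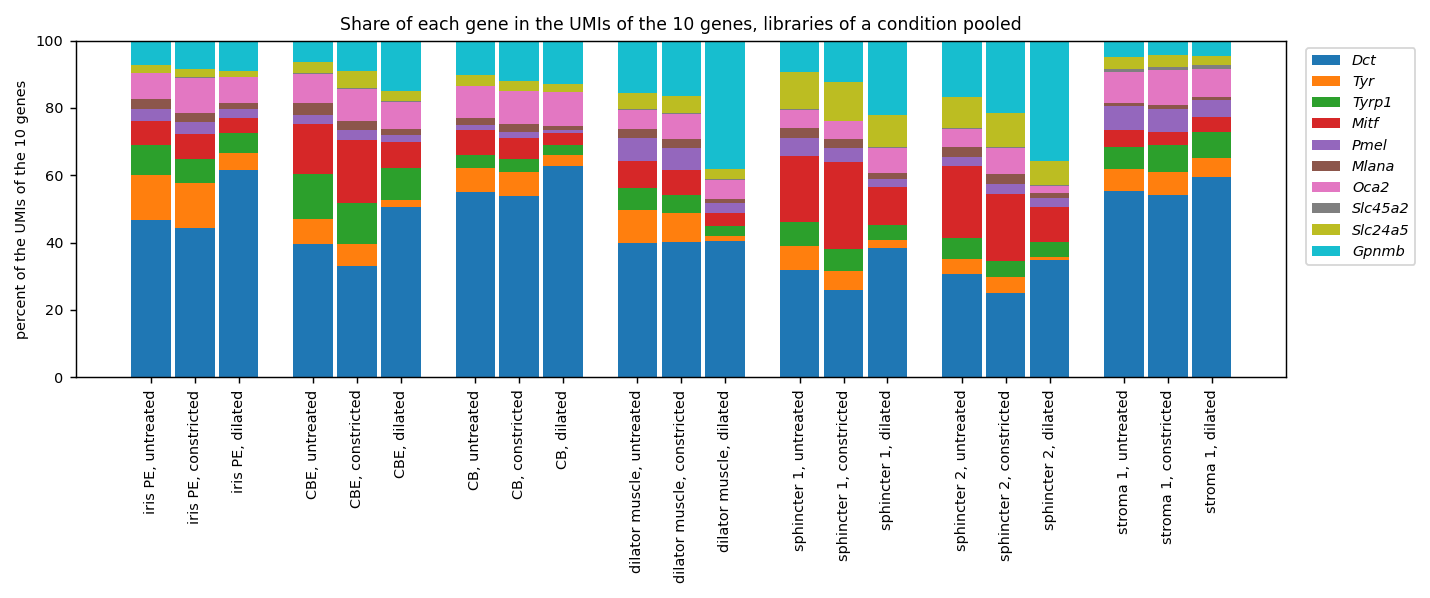
Percent of the UMIs of the 10 genes that belongs to each gene, in 7 cell types and 3 conditions with the libraries of a condition pooled. In dilator muscle *Gpnmb* takes 15.5% in untreated and 38.2% in dilated libraries, and stroma 1 keeps 4.82% and 4.66%.

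Other genes of the pathway were taken as a list of 30 genes of melanosome formation and transport and a list of 22 transcription factors and signals upstream of melanin synthesis, of which 29 and 20 were in the counts. In dilator muscle 1 of 28 melanosome genes tested rose and 3 fell, with a median log2 fold change of -0.06 against 0.02 over all genes. By the same rule 7.2% of all dilator genes rose and 6.14% fell. *Rab38*, the gene of a small GTPase that brings TYRP1 and tyrosinase to melanosomes, had a mean of 181 CPM in untreated and 42.0 in dilated (log2 fold change -1.92, SE 0.17, edgeR adjusted p = 3.44e-05). *Gpr143*, the receptor gene of ocular albinism, had a mean of 52.2 CPM in untreated and 18.9 in dilated (log2 fold change -1.31, SE 0.19, edgeR adjusted p = 0.000759), and *Lyst*, a regulator of lysosome-related organelle size, 291 CPM in untreated and 462 in dilated (log2 fold change 0.86, SE 0.15, edgeR adjusted p = 0.00265). *Tspan10*, which was named after its values were seen, was at a mean of 179.5 CPM in untreated and 94.0 in dilated (log2 fold change -0.75, SE 0.15, edgeR adjusted p = 0.00639). *Rab38* was the 1 melanosome gene of 27 tested that fell in iris PE, where 0.142% of all genes fell. Its mean there was 742 CPM in untreated and 257 in dilated (log2 fold change -1.49, SE 0.20, edgeR adjusted p = 0.00407). In sphincter 2 it was 1 of 2 that fell among 16 tested, with a mean of 177 CPM in untreated and 57.9 in dilated (log2 fold change -1.48, SE 0.33, edgeR adjusted p = 0.00782). The other was *Slc7a11*, which codes for a cystine transporter (log2 fold change -1.06, SE 0.30, edgeR adjusted p = 0.0448). Of all sphincter 2 genes 1.4% fell. In stroma 2, *Hps3*, a subunit of a complex needed to form lysosome-related organelles, rose (log2 fold change 0.84, SE 0.19, edgeR adjusted p = 0.0423). There 1.73% of all genes changed in either direction.

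Of the upstream list, 3 of 17 genes tested rose in dilator muscle and 1 fell (median log2 fold change 0.05), against 7.2% and 6.14% of all genes. *Tfec*, a relative of *Mitf*, had a mean of 105 CPM in untreated and 50.0 in dilated (log2 fold change -0.86, SE 0.21, edgeR adjusted p = 0.0161). *Edn3*, the gene of an endothelin that acts on melanocytes, had a mean of 4.39 CPM in untreated and 10.2 in dilated (log2 fold change 1.45, SE 0.40, edgeR adjusted p = 0.0303), and *Tfe3*, another relative of *Mitf*, 22.3 CPM in untreated and 32.4 in dilated (log2 fold change 0.72, SE 0.17, edgeR adjusted p = 0.0129). *Otx2*, a neuroepithelial factor that acts with MITF in pigment epithelium, had a mean of 339 CPM in untreated and 479 in dilated (log2 fold change 0.68, SE 0.14, edgeR adjusted p = 0.00598) and was named after its values were seen. In stroma 2, *Edn3* rose, with a mean of 149 CPM in untreated and 437 in dilated (log2 fold change 1.63, SE 0.35, edgeR adjusted p = 0.0367), and *Zeb2*, a repressor that acts in neural crest cells and melanocytes, fell (log2 fold change -1.09, SE 0.19, edgeR adjusted p = 0.014). The dilator level of *Edn3* was far below its stroma 2 level. What part of it came from the RNA of other cells was not tested. In stroma 1 edgeR called 0 of 38 genes of both lists, and 11 had an unadjusted p under 0.05. Of all 8911 genes tested in stroma 1, edgeR called 104, and 1188 had an unadjusted p under 0.05. *Sox10* was at a log2 fold change of 0.05 there (adjusted p = 0.958) and *Pax3* at -0.05 (adjusted p = 0.941). The medians of the lists in stroma 1 were -0.11 and -0.05 on the log2 scale, against 0.01 over all genes.

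Constriction with pilocarpine was compared with the same untreated libraries. By edgeR 0 of 93 pairs of a gene and a cell type changed, 18 had an unadjusted p under 0.05, and DESeq2 called 3 (*Dct*, *Tyr* and *Oca2* in endothelial cells). Of the 18, 6 were in endothelial cells, 3 each in CBE, stroma 1 and leukocytes, 2 in sphincter 2 and 1 in CB. Over all genes tested, those with an unadjusted p under 0.05 numbered 146 of 1352 in endothelial cells and 554 of 8166 in CBE. They numbered 444 of 8911 in stroma 1 and 167 of 3027 in leukocytes. Of the other lists edgeR called 0 of 290 pairs, and 27 had an unadjusted p under 0.05. These included 6 of 45 in dilator muscle, 5 of 39 in stroma 2, 4 of 43 in iris PE and 4 of 28 in CBE, with fewer in each other type. Over all genes the counts were 630 of 15395, 676 of 12788, 617 of 14128 and 554 of 8166 in the same 4 types. The share of all genes that changed was 0.00708% in iris PE, 0% in CBE, 0% in CB, 0.0065% in dilator muscle, 0% in sphincter 1, 0.0897% in sphincter 2, 0% in stroma 1, 0.0156% in stroma 2, 0% in endothelial cells and 0% in leukocytes. In dilator muscle *Tyr* was at 1170.1, 1189 and 1284 CPM in untreated and 998, 1589 and 976 in constricted libraries (log2 fold change -0.01, SE 0.18, edgeR adjusted p = 1), and *Gpnmb* at 1843, 1944 and 2052 and 1859, 2172 and 2420.5 (log2 fold change 0.16, SE 0.15, edgeR adjusted p = 1). For both genes the libraries of the 2 conditions overlapped. In iris PE the log2 fold change was 0.09 for *Tyr* (adjusted p = 0.999) and -0.13 for *Dct* (adjusted p = 0.999), and in stroma 1 it was 0.41 for *Slc45a2* (adjusted p = 0.959).

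The differences that came nearest to the threshold with constriction were in endothelial cells, of which only 12 to 23 nuclei per constricted and 20 to 65 per untreated library were present. *Dct* was at 2191, 1538 and 2858 CPM in untreated and 927, 107 and 383 in constricted libraries (log2 fold change -2.21, SE 0.49, edgeR adjusted p = 0.089). *Oca2* was at 329.7, 342 and 414 and 88.3, 0 and 76.6 CPM (log2 fold change -2.75, SE 0.57, edgeR adjusted p = 0.089), and *Tyr* at 271, 361 and 489 and 22.1, 0 and 153 (log2 fold change -3.05, SE 0.67, edgeR adjusted p = 0.089). For all 3 genes every constricted library was below every untreated one, but without doublets the libraries overlapped for all 3. *Dct* was then at 1558.5, 1132 and 212 CPM in untreated and 927, 107 and 383 in constricted libraries. Without doublets *Oca2* was at 244, 297 and 58.0 and 88.3, 0 and 76.6 CPM, and *Tyr* at 170, 281 and 77.3 and 22.1, 0 and 153 CPM. The summed level of the 4 stroma 1 markers in the same nuclei was 241 to 495 CPM in untreated, 0 to 268 in constricted and 106 to 412 in dilated libraries, and its part in the result was not tested.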

How the data were processed

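Single-nucleus RNA-seq of 8 libraries from mouse iris was analysed. The authors aligned reads with Cell Ranger 3.1.0 and deposited UMI counts per gene and nucleus (10x Chromium 3′ chemistry), with a table that gives each nucleus its cell type, its total and a percent of mitochondrial transcripts per nucleus, which was not used. The reference build was given as mm10, and introns were counted. Per the labels and the study's methods, nuclei with over 1% mitochondrial transcripts, or outside 500 to 6000 transcripts, had been removed by the authors, and tests had been run over nuclei. Here the deposited UMI counts of the nuclei of each cell type were added up within a library, since nuclei of a library are not replicates, and tested with edgeR 4.0.16 (quasi-likelihood, TMM scaling, filterByExpr, all 8 libraries in 1 fit per cell type, two-sided, Benjamini-Hochberg adjustment). A call needed an adjusted p under 0.05 and an absolute log2 fold change over 0.6. Differences between cell types in the effect of dilation came from joint fits with a term for each library, called at an adjusted p under 0.05. The fitting was tested on simulated data.

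CPM used library totals within a cell type, and folds from the fit use TMM, so they need not equal ratios of CPM. Libraries held 5189437 to 25136427 UMIs, with medians of 2775 to 4697.5 per nucleus. Doublets were marked with Scrublet (scanpy 1.11.5, 359 nuclei) and kept in the results, then left out as an alternative. The 3 untreated and 3 constricted libraries and the 2 dilated ones were replicates by their labels, each a pool of irises, so p-values measure the spread between these pools. Leaving out 1 dilated library assumes that the lone one varies like the others. The genes named were the 10 members, the 3 genes most like each member, and from each other list, per comparison in a cell type, the 3 called genes that changed most on the log2 scale with no overlap between the libraries of the conditions. The alternatives were DESeq2 1.42.0, RLE scaling, no filter on low counts, only the libraries of both conditions, a replicate block, a term for library series, no doublets, no fold threshold and each library left out in turn. Scaling by totals alone and leaving out shared barcodes were added after seeing the data. The members and lists were chosen with earlier results of these data known. Of the genes listed, 3 were not used here.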

Additional observations from a re-analysis of the deposited data

Results flagged for a closer look

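The effect of dilation differed between 2 cell types for 12 combinations of a gene and a pair of cell types, by the interaction term of the joint edgeR fit (adjusted p under 0.05), and each is given here as the log2 fold change in the first type minus that in the second. Between dilator muscle and iris PE the difference was -0.837 for *Tyr* (adjusted p = 6.96e-06), 0.393 for *Oca2* (adjusted p = 0.0454) and 1.53 for *Gpnmb* (adjusted p = 5.79e-10). Between stroma 1 and iris PE it was 1.23 for *Tyr* (adjusted p = 2.66e-06) and 1.43 for *Slc45a2* (adjusted p = 7.47e-05).

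Between stroma 1 and dilator muscle it was 2.01 for *Tyr* (adjusted p = 2.65e-13), 0.752 for *Tyrp1* (adjusted p = 0.0136), 0.524 for *Mlana* (adjusted p = 0.039) and 0.781 for *Slc45a2* (adjusted p = 0.00531), and it was -0.629 for *Oca2* (adjusted p = 0.0101) and -1.79 for *Gpnmb* (adjusted p = 1.10e-10). Between CBE and iris PE it was 1.08 for *Gpnmb* (adjusted p = 0.0018). *Tyrp1* and *Mlana* were not called within either cell type. The pairs of cell types share libraries, and some share a cell type.

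Some of these differences were not called when a library was left out or the processing was changed. For *Gpnmb* between CBE and iris PE the difference was -0.00307 without doublets, where the CBE levels were 220.3, 177 and 221 CPM in untreated and 440.0 and 116 in dilated libraries, and it was 0.71 without dilated replicate 1 (adjusted p = 0.618) and 1.04 without untreated replicate 3 (adjusted p = 0.0751). For *Oca2* between dilator muscle and iris PE it was 0.14 without dilated replicate 1 (adjusted p = 0.597), 0.39 without constricted replicate 2 (adjusted p = 0.0581), 0.37 without untreated replicate 2 (adjusted p = 0.157), 0.33 without untreated replicate 3 (adjusted p = 0.19) and 0.27 with no scaling beyond library totals (adjusted p = 0.198), and between stroma 1 and dilator muscle it was -0.64 without dilated replicate 1 (adjusted p = 0.0711), -0.51 without dilated replicate 2 (adjusted p = 0.146), -0.62 without untreated replicate 2 (adjusted p = 0.0567), -0.50 without untreated replicate 3 (adjusted p = 0.221) and -0.44 with no scaling beyond library totals (adjusted p = 0.094). For *Mlana* it was 0.50 with no filter on low counts (adjusted p = 0.0554), 0.48 without untreated replicate 1 (adjusted p = 0.0796), 0.64 without dilated replicate 1 (adjusted p = 0.0624), 0.51 without dilated replicate 2 (adjusted p = 0.187), 0.57 without untreated replicate 2 (adjusted p = 0.0951) and 0.63 without untreated replicate 3 (adjusted p = 0.0759), for *Tyrp1* 0.23 without dilated replicate 2 (adjusted p = 0.678), 0.63 without untreated replicate 2 (adjusted p = 0.111) and 0.73 without untreated replicate 3 (adjusted p = 0.116) and for *Slc45a2* between stroma 1 and dilator muscle 0.63 without dilated replicate 2 (adjusted p = 0.0935). The 3 differences of *Tyr*, those of *Gpnmb* with dilator muscle and that of *Slc45a2* between stroma 1 and iris PE were called under all 13 alternatives.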

How the results depend on the processing

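With dilation the 10 calls were 10 with RLE scaling, 12 with DESeq2, 17 with no filter on low counts, 14 with only the libraries of both conditions, 18 with library series as a term, 9 without doublets, 11 with no fold threshold and 9 with no scaling beyond library totals. They numbered 6 to 12 when a library was left out, the fewest without untreated replicate 3. With constriction the count of 0 became 3 with DESeq2, 5 with no filter, 0 by totals alone and 0 to 4 when a library was left out. The 12 differences between cell types were 12 with RLE scaling, 14 with no filter, 11 without doublets, 11 by totals alone and 7 to 14 when a library was left out. Without doublets the difference for *Gpnmb* between CBE and iris PE was lost, at a log2 difference of -0.00307 (adjusted p = 1), with the level of *Gpnmb* in CBE of the dilated libraries 440.0 and 116 CPM in place of 754 and 517. The cause of the other changes was not tested. The number of members highest in stroma 1 was 8, and 9 over all 8 libraries. Depth limits the endothelial and leukocyte values most, since a library held as few as 12 and 13 nuclei of these types.

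The labels do not say that libraries with the same replicate number share anything else, and not every same-numbered pair deviated together, so the numbers were not used as pairs. In dilator muscle, iris PE and stroma 1, 5 of 7 same-numbered pairs had deviations from the group means that correlated by over 0.1. This held for 3 of 14 pairs with other numbers, and 4 of 8 libraries correlated best with their own number. In each of these cell types every pair over 0.1 lay within the same stretch of library numbers, and no pair from different stretches reached 0.1. In dilator muscle the pairs of different conditions within a stretch ranged from 0.182 to 0.426, and the highest across stretches was 0.0869. The main fits held no term for the stretch, and the count of calls with library series as a term is given above. With the replicate block, 14 pairs were called with dilation, among them *Gpnmb* and *Tyr* in CBE and *Gpnmb* in stroma 2, and 0 with constriction.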

Other observations

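The number of the 10 genes seen at once in a nucleus, after thinning to 1000 UMIs, gives a further description. In untreated irises a stroma 1 nucleus held transcripts of 7.14 of the genes on average, an iris PE nucleus 5.20 and a dilator nucleus 5.27, whereas a stroma 2 nucleus held 0.917. Nuclei with 5 or more of the genes made up 96.3% of stroma 1, 69.3% of iris PE, 70.0% of dilator muscle and 0.377% of stroma 2. In dilated irises these shares were 97.9%, 55.4%, 51.1% and 0.547%. They are given without a test.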
